A study of Mus musculus with 4 samples.

Results

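The genes described here make or place the programmed DNA double-strand breaks that start meiotic recombination, or read the histone marks at their sites. They were chosen by symbol, as *Spo11*, *Gm960* (now *Top6bl*), *Rec114*, *Mei4*, *Ccdc36* (now *Iho1*), *Mei1*, *Prdm9* and *Zcwpw1*, and all 8 were found among the 11598 genes of the deposited Ribo-seq table. All 8 passed the filter on low values used for testing, which kept 10475 genes.

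In meiotic prophase, SPO11 and its partner TOP6BL act as a topoisomerase-like enzyme that cuts both DNA strands and stays bound to the ends. REC114, MEI4, IHO1 and MEI1 are needed for these cuts and sit on the chromosome axis, the protein core along which the sister chromatids are folded into loops. In mice, PRDM9 chooses where breaks fall by binding DNA through its zinc fingers and methylating nearby histones, and ZCWPW1 reads that methylation. Breaks form in leptotene and are repaired through zygotene and pachytene, and the repair brings homologous chromosomes together.

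The series measured ribosome-protected fragments (RPFs), the pieces of mRNA shielded by ribosomes, in leptotene and zygotene spermatocytes sorted by FACS from mouse testes on postnatal day 12. Control libraries were compared with *Eef1g*-cKO libraries, in which Stra8-GFPCre deletes part of *Eef1g* in male germ cells, with 2 libraries per genotype. The genotype label of the controls is wild type, and the study describes them as littermates. *Eef1g* encodes a subunit of translation elongation factor eEF1, and the comparison asks how ribosome occupancy differs in early meiotic cells without it. Mean depth differed 6.11-fold between the genotypes, and the reads counted on genes were 2479504 and 1384282 for control against 223906 and 407979 for *Eef1g*-cKO.

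Values are FPKM, the reads per kilobase of gene and per 1000000 reads on genes, so each is a share of its library and not an amount per cell. A single read on 1 kb was worth 0.403 and 0.722 FPKM in control and 4.47 and 2.45 FPKM in *Eef1g*-cKO. The median gene had 60 and 34 reads in the control libraries, against 5 and 8 in those of *Eef1g*-cKO. Intervals and floors given here cover counting error only. A smaller share of one cell type and less ribosome signal per cell cannot be told apart in these bulk libraries.

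Markers of the label were present, but not alone. All 8 leptotene/zygotene markers had reads in every library, and their summed level was 1939 and 1554 FPKM in control and 4458 and 4086 FPKM in *Eef1g*-cKO, a 2.45-fold difference, with *Sycp3*, which encodes a protein of the chromosome axis, the most abundant. Of these 8 markers, 5 rose in *Eef1g*-cKO and 0 fell by the call explained below. Of the 8, 7 are also in the pathway lists described later.

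Markers of other germ cells were abundant and moved with genotype too. In control replicate 2 the spermatogonial sum, 1630 FPKM, exceeded the leptotene/zygotene sum, 1554 FPKM. Sums over different genes do not measure shares of cells. By staining, the study found most sorted cells of both genotypes in leptotene or zygotene, with no significant difference between genotypes. Spermatogonial markers had sums of 1396 and 1630 FPKM in control against 227 and 219 FPKM in *Eef1g*-cKO, 6.79-fold lower, and 6 of 8 fell. The most abundant of them, *Uchl1*, a ubiquitin hydrolase gene, had 1011 and 1138 FPKM in control and 140 and 120 FPKM in *Eef1g*-cKO. Markers of pachytene and later cells, with 4 of 8 in the table, summed to 578 and 439 FPKM against 1708 and 1658 FPKM, of which *Hist1h1t*, the testis-specific linker histone gene, gave 388 and 301 FPKM in control and 1458 and 1354 FPKM in *Eef1g*-cKO. In older *Eef1g*-cKO testes the study detected no pachytene spermatocytes and no H1T, the protein of *Hist1h1t*. The sum of this list is thus not a measure of such cells. In that list *Hist1h1t* rose and *Piwil1*, a piRNA pathway gene, was called lower (limma adjusted p = 0.161). *Piwil1* had 80 and 16 reads in control and only 1 and 2 in *Eef1g*-cKO. *Ldhc* and *Hspa2* lay above both controls in both *Eef1g*-cKO libraries but were not called. The preleptotene list, with 4 of 5 in the table, summed to 368 and 404 FPKM in control and 245 and 201 FPKM in *Eef1g*-cKO, with *Stra8*, the meiotic entry gene, most abundant and lower and the cyclin gene *Ccne2* higher.

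Each list of somatic markers had a lower sum than the leptotene/zygotene list in every library. The Sertoli cell list, with 7 of 8 in the table and 2 lower, summed to 559 and 136 FPKM in control and 134 and 85.5 FPKM in *Eef1g*-cKO. Its most abundant gene was *Clu*, which encodes the secreted chaperone clusterin, and 5 of the 7 had reads in every library. *Gata4*, a transcription factor gene, had 27 and 6 reads in control and 0 in both *Eef1g*-cKO libraries. Peritubular markers, with 2 of 3 in the table and *Acta2*, a smooth muscle actin gene, most abundant, summed to 34.1 and 19.4 FPKM against 5.21 and 17.7 FPKM. Leydig cell markers, with 3 of 5 in the table, did not pass 5.82 FPKM in sum, and each of these genes had 12 to 14 reads over all 4 libraries. Of these genes of steroid synthesis, *Cyp11a1* was at 0 in control replicate 1 and both *Eef1g*-cKO libraries, *Hsd3b1* was at 0 in both *Eef1g*-cKO libraries, and *Star* had 7 and 3 reads in control and 2 in each *Eef1g*-cKO library. Spermatid markers, with 2 of 6 in the table, summed to 3.79 and 52.7 FPKM in control and 0 and 11.5 FPKM in *Eef1g*-cKO, with *Tnp1*, a transition protein gene, most abundant and the protamine gene *Prm2* at 0 in every library but control replicate 2. Of the macrophage and blood markers, 0 were in the table. The part of these cell types in the members' values was not tested.

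**Figure D1:**
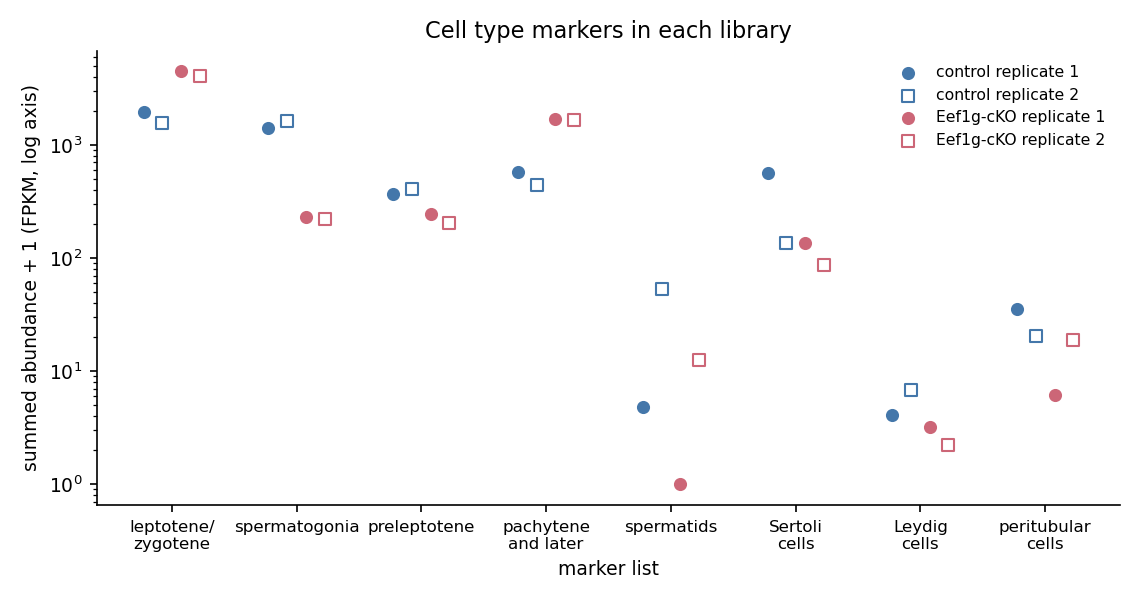
Summed FPKM + 1 of each cell type's marker list on a log axis, with a point for each library and control and *Eef1g*-cKO in separate colours. The leptotene/zygotene sum is 2.45-fold higher and the spermatogonial sum 6.79-fold lower in *Eef1g*-cKO.

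The deleted gene itself was low. *Eef1g* had 107 and 58 reads in control, 27.6 and 26.8 FPKM, and 0 and 4 reads in *Eef1g*-cKO, 0 and 6.26 FPKM. Pooled over libraries, its rate was 6.75 times higher in control (95% interval 2.59 to 25.1), with a log2 fold change of −3.39 (SE 0.91, limma adjusted p = 0.0731). The groups did not overlap. The table has a single value per gene, so it does not show where along *Eef1g* the 4 reads lie. Without control replicate 1 or 2 the fold change was −3.37 or −3.41, and the gene no longer passed the unadjusted p. It also missed that p with a pseudocount of 0.1 (−5.10) and with reads thinned to the shallowest library (−3.03), settings described below. The size rested on the *Eef1g*-cKO libraries, at −1.96 without replicate 1 and −4.82 without replicate 2 of that genotype.

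Among the break genes, *Gm960* rose and *Rec114* fell in *Eef1g*-cKO, and *Zcwpw1*, by far the most occupied member, was 1.87-fold higher in FPKM without reaching the fold required for a call. *Spo11*, *Ccdc36* and *Mei1* had groups that overlapped. *Prdm9* and *Mei4* had groups that did not overlap but differed by less than the test could call. A call was an unadjusted limma p under 0.05 with an absolute log2 fold change above 1, on log2(FPKM + 1), a scale that understates the fold of genes with few FPKM. With 2 libraries per genotype, the smallest two-sided p of an exact permutation test on any gene is 0.333, so the tests borrow their error from all 10475 genes.

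By this call 1 member was higher, where 7.32% of all tested genes were, and 1 was lower, where 16.3% were, with 6 members not called. By limma's adjusted p, 0 members were called in either direction, beside 2.87% of all tested genes called higher and 4.97% called lower. That background, 301 genes higher and 521 lower, fell to 0 and 0 without control replicate 1, without control replicate 2, with thinned reads and with no trend in the prior variance, and was 566 and 1471 without *Eef1g*-cKO replicate 2 and 339 and 1116 without *Eef1g*-cKO replicate 1. With a pseudocount of 0.1 that background was 29 genes higher and 47 lower. The count model edgeR tested 7 members and called 2 by adjusted p, *Gm960* higher and *Rec114* lower. Of its tested genes, 8.75% were called higher and 11.2% lower. DESeq2 called 1 by adjusted p, *Gm960*, beside 4.33% of its tested genes higher and 3.89% lower. For 3 members both *Eef1g*-cKO values exceeded both control values, *Gm960*, *Prdm9* and *Zcwpw1*, as for 24.6% of all tested genes, and for 2, *Rec114* and *Mei4*, both were below, as for 37.7%. These counts are too small to set the members apart from the rest of the table.

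All genes together were not centred on 0, with a median log2 fold change of −0.23 and quartiles of −0.96 and 0.41, although the median was 0.07 with the 2728 genes of few reads at their bound. The members' median was 0.06. Centring the libraries on their medians moved the all-gene median by 0.21, and the members' median was then 0.28 against −0.02 for all genes. On that centred scale the log2 fold changes were 1.68 for *Gm960*, 1.14 for *Zcwpw1* and −0.92 for *Rec114*, and the calls became *Gm960* and *Zcwpw1*, both higher, where 11% of all genes were called higher and 12.8% lower.

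**Figure D2:**
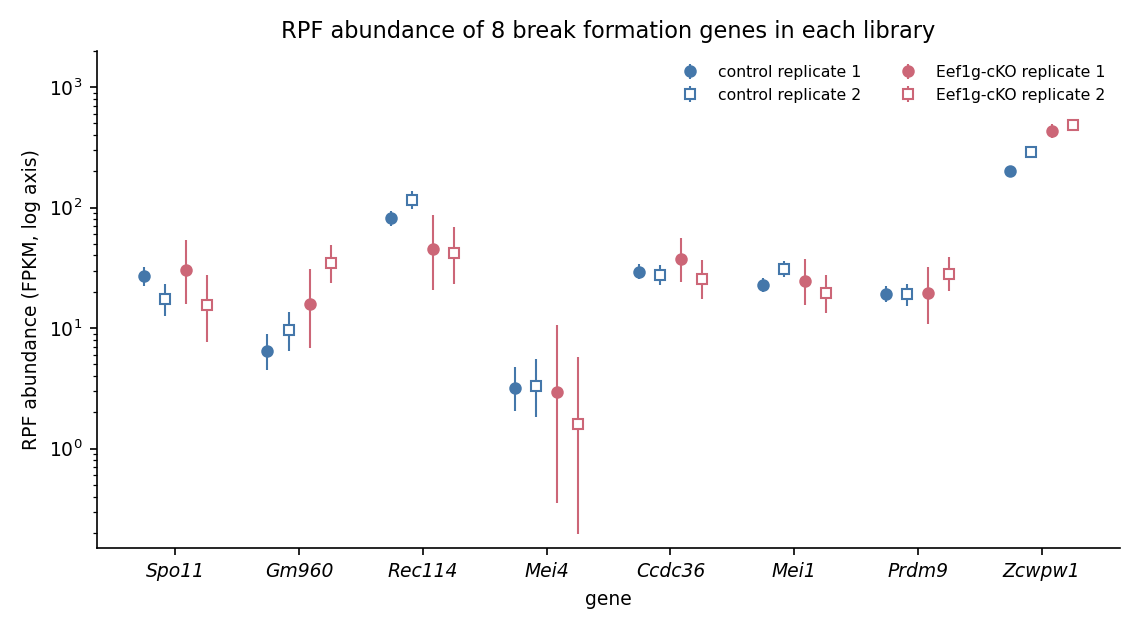
FPKM of the 8 members in each of the 4 libraries on a log axis, with exact 95% Poisson intervals of the read counts as bars. *Zcwpw1* is the most occupied member in every library and *Mei4* the least, and the intervals are wider in the shallower *Eef1g*-cKO libraries.

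*Spo11* (chr2:172977379-172993576, plus strand, RefSeq on GRCm38.p6, the build of all gene positions here) encodes the subunit that cuts DNA. It had 117 and 42 reads in control, 26.9 and 17.3 FPKM, and 12 and 11 reads in *Eef1g*-cKO, 30.5 and 15.4 FPKM. Each genotype thus held a higher and a lower library, and the ranges overlapped almost completely. Its means were 22.1 ± 6.79 FPKM and 23 ± 10.7 FPKM (SD, n = 2), with a log2 fold change of 0.01 (SE 0.42, limma adjusted p = 0.99). The pooled rate in *Eef1g*-cKO was 0.885 times that in control (95% interval 0.545 to 1.37), so a change smaller than these bounds was not detectable at this depth.

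*Gm960* (chr19:4625734-4698713, minus strand) encodes TOP6BL, the regulatory partner without which SPO11 makes no breaks. It had 36 and 30 reads in control, 6.42 and 9.58 FPKM, and 8 and 32 reads in *Eef1g*-cKO, 15.8 and 34.7 FPKM. Both *Eef1g*-cKO libraries lay above both controls, and they differed from each other more than the controls did. The means were 8 ± 2.24 FPKM and 25.2 ± 13.4 FPKM (SD, n = 2), a 3.15-fold difference, and the log2 fold change was 1.47 (SE 0.46, limma adjusted p = 0.0995). Counting error alone left the pooled ratio at 3.71 (95% interval 2.44 to 5.57). By edgeR the log2 fold change was 1.83 (adjusted p = 0.00803, within a range of 0.00687 to 0.677 over all settings tried).

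The *Gm960* call rested on single libraries. It was lost without control replicate 1, at 1.21, without control replicate 2, at 1.72, and without *Eef1g*-cKO replicate 2, at 0.92, and the fold change was 2.01 without *Eef1g*-cKO replicate 1. With every library thinned to the shallowest depth, in a single random draw, the log2 fold change was 0.51 and not called. Its sign was the same in all 19 settings.

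*Rec114* (chr9:58652856-58822706, minus strand) encodes an axis-bound protein that pairs with MEI4 and binds TOP6BL. It had 178 and 141 reads in control, 81.3 and 115 FPKM, and 9 and 15 reads in *Eef1g*-cKO, 45.5 and 41.6 FPKM. Both *Eef1g*-cKO libraries lay below both controls and close to each other. The means were 98.3 ± 24.1 FPKM and 43.6 ± 2.75 FPKM (SD, n = 2), 2.26-fold lower, with a log2 fold change of −1.14 (SE 0.25, limma adjusted p = 0.0518). The pooled rate was 2.17 times higher in control (95% interval 1.43 to 3.44). *Rec114* was below 0 in all 19 settings, but its call was lost without control replicate 2, at −0.89, with centred libraries, at −0.92, and with the trend over GC content removed, at −0.76. Exons of *Rec114* share 24 bases with those of *Nptn*, a cell adhesion gene on the other strand.

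*Mei4* (chr9:81863670-82206007, plus strand), which encodes the partner of REC114, was the least occupied member. It had 24 and 14 reads in control, 3.16 and 3.3 FPKM, and 2 reads in each *Eef1g*-cKO library, 2.92 and 1.6 FPKM. With so few reads the *Eef1g*-cKO values are given as bounds, 0.353 to 10.5 FPKM and 0.194 to 5.79 FPKM (exact 95% Poisson intervals), which contain both control values. The pooled ratio was 0.644 (95% interval 0.167 to 1.79), and the log2 fold change was −0.41 (SE 0.49, limma adjusted p = 0.605). A single read was worth 1.46 and 0.801 FPKM in *Eef1g*-cKO, so although both values lay below both controls, 1 more read would have put the first library above them. No other member had 3 or fewer reads in any library.

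*Ccdc36* (chr9:108403492-108431841, minus strand) encodes IHO1, which binds HORMAD1 on unpaired axes and recruits REC114 and MEI4. It had 209 and 110 reads in control, 29.4 and 27.7 FPKM, and 24 and 30 reads in *Eef1g*-cKO, 37.4 and 25.7 FPKM. The controls lay between the *Eef1g*-cKO libraries. The log2 fold change was 0.11 (SE 0.28, limma adjusted p = 0.806) and the pooled ratio 1.04 (95% interval 0.761 to 1.38). *Rec114*, *Mei4* and *Ccdc36*, whose proteins act together, all lie on chromosome 9, and of these 3 only *Rec114* passed the unadjusted call.

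*Mei1* (chr15:82070074-82126817, plus strand) encodes a large protein without which meiotic breaks do not form. It had 224 and 172 reads in control, 22.6 and 31.1 FPKM, and 22 and 32 reads in *Eef1g*-cKO, 24.6 and 19.7 FPKM. Its groups overlapped. The log2 fold change was −0.26 (SE 0.29, limma adjusted p = 0.577), close to the median of all genes, and the pooled ratio was 0.834 (95% interval 0.615 to 1.11).

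*Prdm9* (chr17:15543072-15564374, minus strand) encodes the histone methyltransferase that marks break sites. It had 166 and 91 reads in control, 19.3 and 19 FPKM, and 15 and 40 reads in *Eef1g*-cKO, 19.4 and 28.3 FPKM. The groups were separated only by the narrow gap between 19.3 and 19.4 FPKM. The log2 fold change was 0.28 (SE 0.30, limma adjusted p = 0.561) and the pooled ratio 1.31 (95% interval 0.96 to 1.76).

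Reads on *Prdm9* are harder to place than those of the other members, because its zinc fingers are coded by a tandem array of nearly identical units. The reference genome, GRCm38, holds 10 full units of 84 bases there, on the minus strand of chromosome 17. Their median identity between pairs was 96.4%, with a range of 94% to 100%. A further finger, the last of 11, follows at the same spacing, but the coding sequence ends before it reaches 84 bases. Of the 2515 windows of 30 bases in its coding sequence, a length within the 26 to 34 bases of the sequenced fragments, 760 (30.2%) occur more than once in the genome, up to 11 times. The same count was 1 of 1864 windows for *Zcwpw1* and 0 for the 6 other members. How reads with several matching places were treated is not given in the sources used here. The 4 units below show why the array repeats, and capitals mark the 6 positions at which the 10 units are not all the same. Unit 1 lies at chr17:15544807-15544890, unit 2 at chr17:15544723-15544806, unit 4 at chr17:15544555-15544638 and unit 6 at chr17:15544387-15544470.
Prdm9 unit 1: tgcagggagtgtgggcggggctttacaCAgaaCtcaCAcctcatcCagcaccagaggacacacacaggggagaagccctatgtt
Prdm9 unit 2: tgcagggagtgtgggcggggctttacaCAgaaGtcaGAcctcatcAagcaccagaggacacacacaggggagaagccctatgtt
Prdm9 unit 4: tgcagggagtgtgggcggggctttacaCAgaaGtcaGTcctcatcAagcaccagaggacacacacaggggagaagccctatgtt
Prdm9 unit 6: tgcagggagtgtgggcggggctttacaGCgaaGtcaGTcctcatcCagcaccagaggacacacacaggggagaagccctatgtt
The varying positions lie in the middle of the unit, where the codons for the DNA-contacting residues of each finger lie. Unit 2 occurs 2 times in the array, unit 4 also 2 times and unit 6 occurs 3 times.

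*Zcwpw1* (chr5:137787157-137822621, plus strand) encodes the reader of PRDM9's histone marks, which is needed for repair of the breaks more than for making them. It had 1106 and 885 reads in control, 201 and 288 FPKM, and 215 and 437 reads in *Eef1g*-cKO, 433 and 483 FPKM. Both *Eef1g*-cKO libraries lay well above both controls. The means were 245 ± 61.6 FPKM and 458 ± 35.4 FPKM (SD, n = 2), 1.87-fold higher, with a log2 fold change of 0.92 (SE 0.25, limma adjusted p = 0.0728), short of the fold for a call. By edgeR it was 0.99 (adjusted p = 0.00316) and by DESeq2 0.97 (adjusted p = 0.00302), again short of the fold, with adjusted p from 0.00298 to 0.406 over all settings. Its reads bound the ratio more tightly than those of any other member, at 2 (95% interval 1.83 to 2.19). The call was made with centred libraries, at 1.14, without control replicate 2, at 1.18, and without *Eef1g*-cKO replicate 1, at 1.00, and the sign turned in 1 of 19 settings, to −0.37 when libraries were scaled to the leptotene/zygotene markers, a scaling that lowered all genes. *Zcwpw1* shares 468 exon bases with *Pilra*, an immune receptor gene on the other strand that is not in the table.

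**Figure D3:**
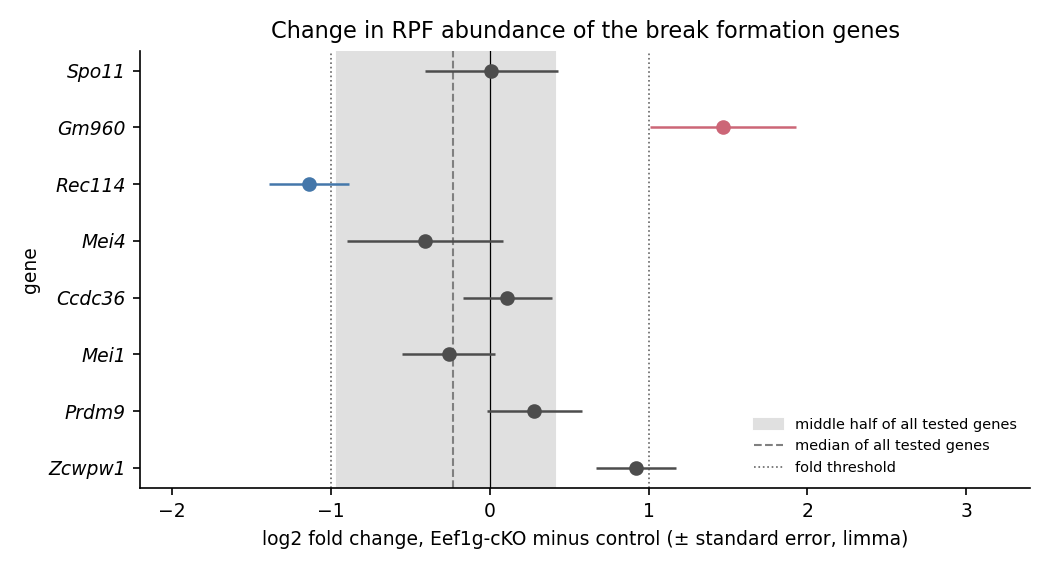
Log2 fold change on log2(FPKM + 1), *Eef1g*-cKO minus control, of each member from limma, with its standard error. *Gm960* at 1.47 and *Rec114* at −1.14 pass the fold of 1 on the log2 scale and *Zcwpw1* at 0.92 does not, and of these 3 signs that of *Zcwpw1* turns when libraries are scaled to the leptotene/zygotene markers.

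Ranked by FPKM, the members spanned a wide range in both genotypes. In control, *Zcwpw1* led, *Rec114* followed, and *Ccdc36* (28.6 ± 1.19 FPKM), *Mei1* (26.9 ± 6.01), *Spo11* and *Prdm9* (19.2 ± 0.247) came next, each overlapping its neighbour in that order. *Gm960* and then *Mei4* (3.23 ± 0.1) lay below them without overlap. In *Eef1g*-cKO, *Zcwpw1* and *Rec114* again led without overlap, and *Ccdc36* (31.5 ± 8.3 FPKM), *Gm960*, *Prdm9* (23.8 ± 6.35), *Spo11* and *Mei1* (22.1 ± 3.51) overlapped their neighbours, with *Mei4* (2.26 ± 0.931) last. *Gm960* thus moved from below the middle group in control into it in *Eef1g*-cKO. Among all tested genes, *Gm960* went from percentile 42.9 in control to 73.1 in *Eef1g*-cKO, *Rec114* from 92.2 to 82.8 and *Zcwpw1* from 97.6 to 98.7. *Mei4* was at percentile 19.5 and 21.6.

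The FPKM use the full gene length, while ribosomes occupy mainly the coding sequence, so members with long untranslated regions look lower than they are per coding base. The deposited length was 2.62 times the coding length for *Mei4*, 1.66 times for *Ccdc36* and 1.47 times for *Spo11*, and 1 for *Gm960*. Per kilobase of coding sequence, *Mei4* had a mean of 8.46 in control and *Gm960* 8, so the lowest places in control are not told apart on that scale. In *Eef1g*-cKO the same values were 5.91 for *Mei4* and 25.2 for *Gm960*. *Zcwpw1* led on that scale too, with 287 ± 72.2 in control and 537 ± 41.4 in *Eef1g*-cKO (SD, n = 2). *Rec114* came next in control, with 111 ± 27.3 against 47.5 ± 1.98 for *Ccdc36*, while in *Eef1g*-cKO *Ccdc36* had 52.4 ± 13.8 and *Rec114* 49.3 ± 3.11, closer than their spread.

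Together the 8 genes took 831 and 1073 of every 1000000 reads on genes in control, against 1371 and 1468 in *Eef1g*-cKO. *Zcwpw1* alone gave 53.7% and 59.6% of these reads in the control libraries, against 70% and 73% in those of *Eef1g*-cKO. Without it, the other 7 took 385 and 433 of every 1000000 reads in control, against 411 and 397 in *Eef1g*-cKO, values that overlap between the genotypes. The higher sum in *Eef1g*-cKO is therefore that of *Zcwpw1*, with *Gm960* and *Rec114* moving in opposite directions beneath it.

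Relative to the leptotene/zygotene markers, the members looked different. *Zcwpw1* equalled 10.4% and 18.6% of the summed marker FPKM in control, against 9.71% and 11.8% in *Eef1g*-cKO, and *Gm960* equalled 0.331% and 0.617% against 0.354% and 0.849%, so both overlapped. *Rec114* equalled 4.19% and 7.42% in control and 1.02% in each *Eef1g*-cKO library. *Spo11* equalled 1.39% and 1.11% in control, against 0.685% and 0.376% in *Eef1g*-cKO. *Mei1*, *Mei4*, *Ccdc36* and *Prdm9* were likewise lower in both *Eef1g*-cKO libraries than in both controls on this measure. The marker sum itself was 2.45-fold higher in *Eef1g*-cKO, which lowers the measure for any gene. The share of all genes that separate this way was not computed, so these separations do not set the members apart. A scaling to these markers, chosen after seeing the data, moved the all-gene median by −1.12 and called 5 members lower, *Spo11*, *Rec114*, *Mei1*, *Mei4* and *Ccdc36*, where 56.8% of all tested genes were lower and 0.603% higher, so this count is near the background. *Spo11*, *Ccdc36*, *Prdm9* and *Zcwpw1* changed sign under it, but the scaling moved all genes down together. Relative to the median of all genes, *Zcwpw1* was at 0.98 with this scaling and 1.16 without it, and *Prdm9* at 0.39 and 0.51. *Gm960* above 0, and *Rec114* and *Mei4* below it, kept their signs in every setting that gave them a value.

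**Figure D4:**
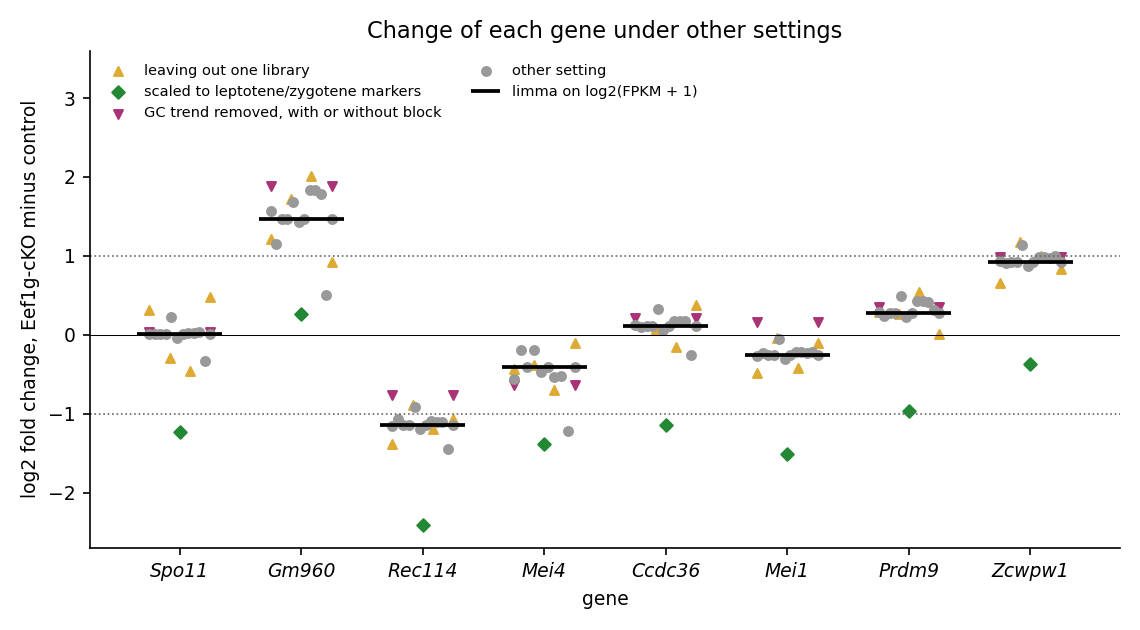
Log2 fold change of each member, *Eef1g*-cKO minus control, under the main setting and the 19 other settings tried. *Rec114* runs from −2.41 to −0.76 and *Gm960* from 0.26 to 2.01, while *Spo11*, *Mei1*, *Ccdc36*, *Prdm9* and *Zcwpw1* each cross 0.

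The members share few sequence features beyond their function. Their median GC content at the third codon base was 57%, against 60.2% over 10118 tested genes, from 44.5% in *Mei4* to 67.7% in *Mei1*. Their median codon adaptation index, a measure of how far a gene uses the codons of the genes most occupied in control, was 0.764 against 0.777. *Mei4* had the lowest index among them, 0.703, at percentile 2.36 of the tested genes, and *Prdm9* the highest, 0.799. *Gm960* and *Rec114*, which moved in opposite directions, both had 59.1% GC at the third codon base, to the digits given. Their indices were 0.75 and 0.755. Whether these features bear on the changes was not tested.

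The bases around the start codon, where translation begins, also varied. A purine at the third base before the start codon and a G right after it favour initiation in vertebrates. Of 9780 genes, 86.4% had the purine, 53.4% the G and 46.3% both. Of the 7 members with annotated bases before the start, 5 had the purine, all but *Mei1* and *Zcwpw1*, and the G followed in *Spo11* and *Mei4*, which have both. The sequences of the members with the 3 largest changes and of *Spo11* for comparison, from GENCODE release M21 on GRCm38 and with the start codon in capitals, are as follows. They lie at chr2:172979885-172979900 (*Spo11*, plus strand), chr19:4698662-4698668 (*Gm960*, minus), chr9:58741536-58741551 (*Rec114*, minus) and chr5:137795509-137795524 (*Zcwpw1*, plus).
Spo11 start: tccgccattATGgcgt
Gm960 start: ATGtggg
Rec114 start: ttgacaggcATGtctg
Zcwpw1 start: ctgaactgaATGatgg
The annotated *Gm960* transcript begins at its start codon. In *Zcwpw1*, the most occupied member, the start codon has a pyrimidine at the third base before it and is followed at once by another ATG.

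The other genes of the pathway were taken from 5 lists with 53 genes, of which 51 were in the table and 50 were tested. Of these, 10 rose, 3 fell and 37 were not called, where 7.32% of all tested genes rose and 16.3% fell, and by limma's adjusted p 9 rose and 1 fell. None of these adjusted calls held without control replicate 1 or without control replicate 2, with thinned reads, or with no trend in the prior variance, settings in which 0 genes of the whole table passed the adjusted p, nor did those of the genes named below with a pseudocount of 0.1. Their median log2 fold change was 0.30, or 0.42 with genes of few reads at their bound, where all genes had −0.23, or 0.07 with bounds. These rises hold on the scale of all reads on genes, and scaling to the leptotene/zygotene markers gave 26 called genes in place of 13, of which 25 of 51 tested were lower, a share below the 56.8% of all genes called lower there.

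Axis genes and partners of the break machinery, which give the break proteins their platform, had a median of 0.99, with 9 of 10 genes in the table, 4 higher and 0 lower. *Hormad1*, whose protein recruits IHO1 to the axis, had 140 and 75.3 FPKM in control and 503 and 511 FPKM in *Eef1g*-cKO (log2 fold change 2.29, SE 0.32, limma adjusted p = 0.0296). *Ccdc36*, which encodes its partner, had a log2 fold change of 0.11, and the difference between these genes was not tested. *Sycp3*, a structural axis gene, had 811 and 716 FPKM against 2217 and 1778 FPKM (1.38, SE 0.26, limma adjusted p = 0.0389). The meiotic cohesin genes *Smc1b* and *Rad21l* rose by 1.45 (SE 0.20, limma adjusted p = 0.0296) and 1.37 (SE 0.21, limma adjusted p = 0.0307). For all 4 genes both *Eef1g*-cKO libraries lay above both controls. *Sycp3* lost its call with the GC trend removed, alone or with the replicate block, at 0.92. Its adjusted call was also lost with no filter on low values (1.38) and without *Eef1g*-cKO replicate 1 (1.22) or 2 (1.54). With marker scaling *Sycp3* was at 0.08, *Smc1b* at 0.16 and *Rad21l*, which is not among the markers, at 0.09, none of them called, while *Hormad1*, itself a marker, kept its call at 1.00 (limma adjusted p = 0.0387, within a range of 1.28e-11 to 0.136 over all settings).

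Genes that help choose hotspots had a median of −0.36, with 4 of 5 in the table, 3 tested, 0 higher and 1 lower. The gene that fell was *Cxxc1*, whose protein binds unmethylated CpG and interacts with PRDM9, with 67.9 and 95.1 FPKM in control and 24.6 and 26.1 FPKM in *Eef1g*-cKO (log2 fold change −1.63, SE 0.26, limma adjusted p = 0.0328). *Hells*, a remodeller that opens chromatin with PRDM9, had 274 and 241 FPKM in control and 262 and 240 FPKM in *Eef1g*-cKO, with a log2 fold change of −0.04. *Morc2b*, with 9 reads in each control and 0 in each *Eef1g*-cKO library, lay under the filter of a mean of 1 FPKM.

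Strand exchange genes, which act on the resected ends, had a median of 0.50, with all 17 in the table, 5 higher, of which 4 passed limma's adjusted p, and 0 lower. The 4 are named here, and their adjusted calls are lost as described for the pathway as a whole. Those of *Dmc1* (1.04 and 1.04) and *Swi5* (1.25 and 1.04) were also lost without *Eef1g*-cKO replicate 1 or 2, while those of *Meiob* and *Spata22* were not. *Dmc1*, the meiotic recombinase gene, had 179 and 147 FPKM in control and 334 and 336 FPKM in *Eef1g*-cKO (log2 fold change 1.04, SE 0.20, limma adjusted p = 0.0426). *Meiob* and *Spata22*, whose proteins bind single-stranded DNA together, rose by 1.57 (SE 0.24, limma adjusted p = 0.032) and 1.65 (SE 0.24, limma adjusted p = 0.0297). *Swi5*, a strand exchange accessory gene, rose by 1.14 (SE 0.20, limma adjusted p = 0.0374). These 4 genes were higher in both *Eef1g*-cKO libraries than in both controls. The *Dmc1* call lay close to the fold of 1 and was lost without control replicate 2 (0.90), with the GC trend removed, alone or with the replicate block (0.88), with protein-coding scaling (0.99) and with thinned reads (1.00). With marker scaling *Meiob* was at 0.30 and *Spata22* at 0.37, while *Dmc1* turned to −0.25 and *Swi5* to −0.15, none of them called.

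Genes that sense and signal breaks had a median of 0.46, or 0.56 with bounds, with all 14 in the table, 1 higher and 2 lower. *Mdc1*, which encodes the protein that spreads the signal from phosphorylated histone H2AX, had 94.7 and 76.2 FPKM in control and 166 and 177 FPKM in *Eef1g*-cKO (log2 fold change 1.00, SE 0.21, limma adjusted p = 0.0482). *Trp53bp1*, a repair choice gene, had 36.2 and 34.8 FPKM against 13.9 and 18.8 FPKM (−1.08, SE 0.28, limma adjusted p = 0.0653). *Chek2*, a checkpoint kinase gene that responds to unrepaired breaks, had 41 and 32 reads in control and 2 and 3 reads in *Eef1g*-cKO, a pooled ratio of 0.419 (95% interval 0.132 to 1.02). Its log2 fold change was −1.08 (SE 0.42, limma adjusted p = 0.154), and the interval reaches past 1. The calls of all 3 were lost in several settings. *Chek2* missed the p by edgeR (−1.21), by DESeq2 (−1.24), and with either other filter or the replicate block (−1.08), and it missed the fold too with a pseudocount of 5 (−0.67), centred libraries (−0.86) and thinned reads (−0.00). *Trp53bp1* was not called with a pseudocount of 5 (−0.93), centred libraries (−0.87), thinned reads (−0.95) or the GC trend removed, alone or with the replicate block (−0.92). *Mdc1* was not called with a pseudocount of 5 (0.97), protein-coding scaling (0.95) or thinned reads (0.97), and marker scaling turned it to −0.29. Its adjusted call was also lost with no filter on low values (1.00) and without *Eef1g*-cKO replicate 1 (1.05). Single libraries also decided them. *Mdc1* was at 0.85 without control replicate 2 and 0.96 without *Eef1g*-cKO replicate 2. *Chek2* was at −1.29 and −0.86 without control replicate 1 or 2 and at −0.97 without *Eef1g*-cKO replicate 2, and *Trp53bp1* at −1.05 and −1.11 without control replicate 1 or 2 and at −0.88 without *Eef1g*-cKO replicate 1, none of them called.

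End processing genes, which trim the broken ends and free SPO11 from them, had a median of −0.28, with all 7 in the table and 0 called in either direction by limma's unadjusted or adjusted p. *Mre11a*, the nuclease gene, had 43.6 and 48.1 FPKM in control and 31.2 and 29.4 FPKM in *Eef1g*-cKO, with a log2 fold change of −0.58 (SE 0.23, limma adjusted p = 0.153). *Rad50*, the gene of its ATPase partner, had 43.8 and 52.3 FPKM against 39.9 and 38.5 FPKM, with −0.28 (SE 0.23, limma adjusted p = 0.434).

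**Figure D5:**
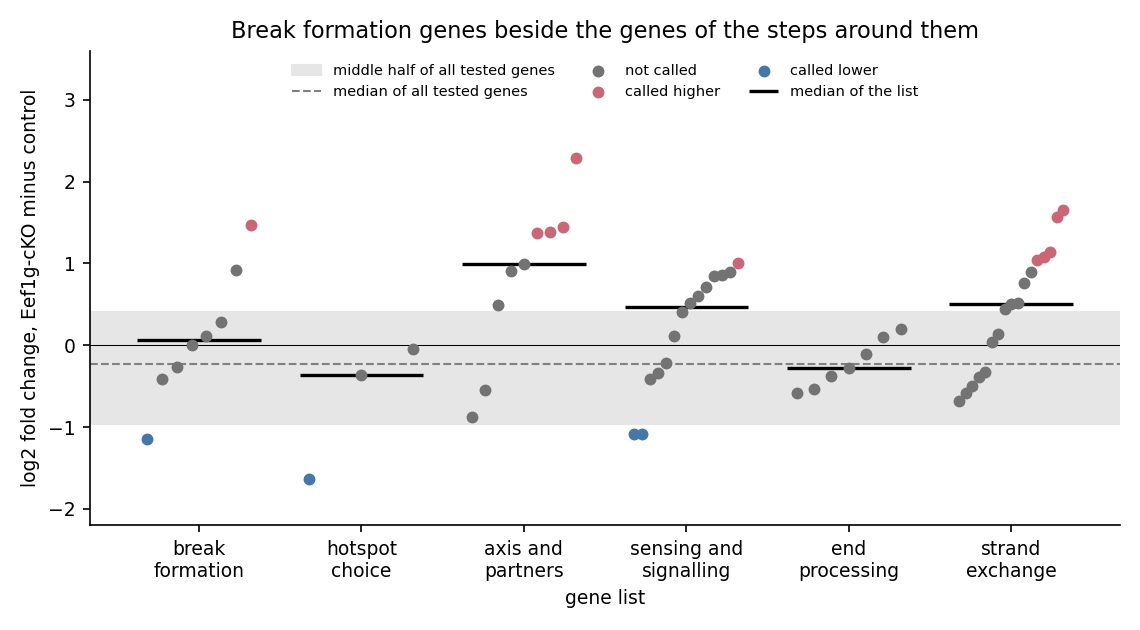
Log2 fold change, *Eef1g*-cKO minus control, of the tested genes of each pathway list and of the members, a point per gene with the list's median marked. The axis list is centred on 0.99, strand exchange on 0.50, the members on 0.06 and end processing on −0.28, and scaling to the leptotene/zygotene markers takes the members' median to −1.19, that of the pathway genes to −1.03 and that of all genes to −1.35.

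The genes whose profile over the 4 libraries was closest to that of the deepest members were sought among the 7079 genes that averaged 5 FPKM or more. Nearest to *Zcwpw1* were *Aasdhppt*, a phosphopantetheinyl transferase gene, at a distance of 0.0297 between centred log2 profiles, *Dmwd*, a WD-repeat gene, at 0.0364, and *Supt3*, a gene of a transcription coactivator complex, at 0.0679, where the median gene was at 1.27. Nearest to *Mei1* were *Abcf3*, an ATP-binding cassette gene, at 0.0549, *Atp5a1*, an ATP synthase subunit gene, at 0.0679, and *Msh6*, a mismatch repair gene, at 0.0836, where the median was 0.974. These distances rest on 4 libraries and describe likeness only.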

How the data were processed

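RPFs of sorted leptotene and zygotene spermatocytes were measured in 2 control and 2 *Eef1g*-cKO libraries. The deposited table holds FPKM, computed by the authors per kilobase of the deposited gene length in bases and per 1000000 reads on genes. It also holds normalized counts, a signal that the authors made by dividing each gene's reads by a size factor per library. Whole reads were recovered from this signal for 100% of values in each library, within a tolerance of 0.001. The authors' own comparison columns hold the mean normalized count, log2 fold change, its standard error, test score, p-value and adjusted p-value, under column names that DESeq2 uses, and were not used. The submitters' processing notes name cutadapt, Bowtie and STAR without versions and the builds mm10 and hg38 without their roles.

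The main test was limma 3.58.1 (R 4.3.3, empirical Bayes with a trend, two-sided) on log2(FPKM + 1), *Eef1g*-cKO minus control, in the 10475 genes that averaged 1 FPKM or more. Calls used unadjusted p under 0.05, or Benjamini-Hochberg adjusted p under 0.05 over all tested genes, with an absolute log2 fold change above 1. On recovered reads, edgeR 4.0.16 (TMM, quasi-likelihood), which called 887 genes higher and 1251 lower by unadjusted p and 705 and 904 by adjusted p among 8056 tested, and DESeq2 1.42.0 were alternatives. Pooled rate ratios carry exact conditional binomial 95% intervals, single values exact Poisson 95% intervals, and a floor of 3 reads was used for bounds. Python 3.11.15 with scipy 1.17.1 was used for these.

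The alternatives were 2 other pseudocounts, 2 other filters, libraries centred on their medians, scaling to protein-coding reads, no trend in the prior variance, edgeR with and without a filter, DESeq2, reads thinned to 222777 per library, the GC trend removed (lowess span 0.3), a replicate block, that block with the GC trend removed, each library left out in turn, and 1 added after seeing the data, a scaling to leptotene/zygotene markers. Thinning was a single random draw, so thinned values of genes with few reads carry its sampling error. The fits were tested on simulated data.

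Members, pathway lists and marker lists were chosen with earlier results of these data known. The named genes are the members, the called genes of the pathway lists except 1 strand exchange gene that missed the adjusted p, the deepest 2 of a list with none called, the 3 nearest profiles for each of the 2 deepest members, and *Eef1g*. *Hells* and *Morc2b* stand outside this rule and were added after their values were seen. Symbols were matched to RefSeq on GRCm38.p6, which matched 10966 current and 598 older symbols and left 34 without a match. Coding sequences came from GENCODE release M21, and the codon index took its weights from the 506 genes with the most FPKM in control.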

Additional observations from a re-analysis of the deposited data

How the results depend on the processing

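Over 19 alternatives the members' fold changes kept their sign and side of the threshold in 124 cases, passed it anew in 5, lost it in 9 and reversed in 12. Named pathway genes and *Eef1g* did so in 238, 2, 42 and 3. All 9 losses among the members were of *Gm960* or *Rec114*, the only members called at first. Members called, 2 at first, were 1 with thinned reads, 1 with the GC trend removed, 1 with the replicate block and GC trend removed, 5 with scaling to leptotene/zygotene markers (chosen after seeing the data) and 1 to 3 without single libraries. Members called by adjusted p, 0 by limma, were 1 with a pseudocount of 5, a mean of at least 5 FPKM, centred libraries, protein-coding scaling, DESeq2, the GC trend removed, or the replicate block with the GC trend removed, 2 with edgeR with or without a filter or the replicate block, 4 with marker scaling and 0 to 1 without single libraries. Pathway genes called, 13 at first, were 26 with marker scaling. All genes called, 2472 at first, were 1497 with a pseudocount of 5, 6283 with marker scaling and 1225 to 3293 without single libraries. *Spo11* turned to −0.04 with protein-coding scaling, −0.33 thinned, −1.23 with marker scaling, and ran from −0.46 to 0.48 without single libraries. *Mei1* turned to 0.16 with the GC trend removed and 0.16 with that and the replicate block. *Ccdc36* turned to −0.26 thinned, −1.14 with marker scaling, and ran from −0.15 to 0.38 without single libraries. With marker scaling *Prdm9* was −0.97, *Zcwpw1* −0.37, *Dmc1* −0.25, *Mdc1* −0.29 and *Swi5* −0.15. The markers hold 7 of the pathway genes, so that scaling draws them toward 0 by construction, and for the rest the cause was not tested. A fit without 1 library assumes that the lone one varies like the other group. Deviations of same-numbered libraries correlated at −0.00804 over 10475 genes, so the replicate block pairs libraries by number alone. Depth limits *Mei4* most, with 2 reads in each *Eef1g*-cKO library.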
